A study of Caenorhabditis elegans with 5 samples.

Results

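The fbxa genes and the skr genes of the nematode Caenorhabditis elegans encode the substrate-binding and the linking parts of one kind of ubiquitin ligase. Members were the genes named fbxa- or skr- and a number whose mean of both normalized values reached 10 reads in at least 1 of the 5 deposited tables. They numbered 149 of 45461 listed gene identifiers: 129 of 222 fbxa genes and 20 of 21 skr genes. The pair of families was chosen by the measured values of these libraries, since their folds from control to gld-1 RNAi animals pointed opposite ways. The values of that comparison are therefore given as a description. Just inside the minimum stood fbxa-138 with a highest mean of 10.4 reads, and just outside it fbxa-136 with 9.52. Of the 93 fbxa genes left out, 16 had no read in any library, and skr-6, the skr gene left out, had none either. Of the members, 101 fbxa and 19 skr genes are annotated as protein-coding, and 28 fbxa genes and skr-11 as pseudogenes.

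An SCF complex is a ubiquitin ligase in which the cullin CUL-1 holds a RING protein, RBX-1, at one end and a Skp1-like adaptor at the other. The adaptor grips the F-box of an interchangeable receptor protein, and the receptor picks the protein to be marked for the proteasome. C. elegans has many Skp1-related (skr) adaptors where most animals have few, and a very large number of F-box genes, of which fbxa is a family (F-box A) that arose largely by local duplication. The F-box protein FOG-2, a relative of the fbxa products, binds the germline RNA-binding protein GLD-1 and promotes sperm formation in hermaphrodites.

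RNA was sequenced from whole worms grown at 20 °C in 5 libraries, each from ca. 3000 animals of 2 independent experiments that were pooled, with 1 library per group. Animals of the control group (day 3 of adulthood) and of the young adult group (day 1) were fed L4440 bacteria, the control food with an empty RNAi vector. The gld-1 RNAi group (day 3) ate bacteria with double-stranded RNA against gld-1, whose loss turns maturing germ cells back to mitosis and gives a germline tumour. The fed and the fasted group (both day 4) were gld-1 RNAi animals moved on day 2, for 48 h, to L4440 bacteria or to plates with no food. No strain, mutant allele or transgene is named in the labels, and the start of the RNAi is given as the larval stage in one label and as after day 1 of adulthood in another. With no replicate library, no difference below has a test against the spread between samples, and intervals cover counting error only. Whole animals were measured, so fewer cells of a type and less RNA per cell cannot be told apart.

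The libraries held 13803289 to 27598482 reads on genes, of which genes annotated as rRNA took 3.51% in the young adult library and 25.4% to 27.8% in the others. Levels below are reads divided by a size factor set over all 5 libraries. Intervals given with folds are 95% counting intervals. Folds are log2 of the second library's value plus 1 over the first's plus 1, from the authors' normalized reads of that pair. The RNAi target gld-1 stood at a level of 17593 in young adult, 20339.9 in control, 1994 in gld-1 RNAi, 3061 in fed and 1592 in fasted animals and was thus low in the 3 libraries labelled gld-1 RNAi. The gld-1 RNAi food carries gld-1 sequence itself. Markers of oocytes, body wall muscle, intestine and neurons were detected in every library, each with 8 of 8 genes above 0 reads. The summed level of 8 oocyte markers was 87732 in young adult, 270955 in control, 76972 in gld-1 RNAi, 57417 in fed and 101672 in fasted animals. That of 8 early embryo markers was 24.3 in young adult, 978 in control, 98.9 in gld-1 RNAi, 90.5 in fed and 99.1 in fasted animals, with med-1 at 0 in all 5 libraries and end-1 also at 0 in the fasted library. Sperm markers summed to 3808 in young adult, 97.8 in control, 622 in gld-1 RNAi, 680.2 in fed and 457 in fasted animals. For germ cell markers the sums were 39913, 67011, 68699, 73273 and 71276.5 in the same order of libraries. For neuron markers they were 5057, 5048, 6565, 6520 and 6243. The part of germ cells and neurons in the members' values was not tested.

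The adaptors comprised a pair of abundant genes, 14 lower ones whose level was highest in the day 3 control and 4 lower ones highest in young adults. Per kb of exon, the mean level over the 5 libraries was 4906 for skr-1 and 3529 for skr-2, against a median of 251 over the 20 members and a lowest value of 36.3 for skr-5. skr-1 (F46A9.5) and its neighbour skr-2 (F46A9.4) encode the CUL-1-binding adaptors needed for embryos and for limiting cell proliferation. The level of skr-1 was 2924 in young adult, 4055 in control, 4788 in gld-1 RNAi, 4804 in fed and 4598 in fasted animals. The level of skr-2 was 1854 in young adult, 2642 in control, 2967 in gld-1 RNAi, 3093 in fed and 2818 in fasted animals. Both were lowest in young adults, next lowest in the control and higher in each gld-1 RNAi library. skr-1 overlaps another annotated gene. From control to gld-1 RNAi the log2 fold was 0.29 (interval 0.24 to 0.35) for skr-1 and 0.22 (interval 0.15 to 0.29) for skr-2.

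The next set, skr-7, skr-8, skr-9, skr-10, skr-12, skr-13 and skr-14, was low in young adults, highest in the control and intermediate in all 3 gld-1 RNAi libraries. RNAi against skr-7, skr-8, skr-9 and skr-10 is known to disturb embryonic development and cell proliferation. The level of skr-7 (Y47D7A.1) was 85.2 in young adult, 1236 in control, 347 in gld-1 RNAi, 336 in fed and 425 in fasted animals. Its neighbour skr-14 (Y47D7A.8) was at 32.1 in young adult, 402 in control, 101 in gld-1 RNAi, 106 in fed and 147 in fasted animals. The control value of both exceeded each of the other 4 values, and the 3 gld-1 RNAi libraries were above the young adult one. skr-9 (C52D10.7), an adaptor with few reads outside the control, was at 4.42 in young adult, 182 in control, 13 in gld-1 RNAi, 15.8 in fed and 20.8 in fasted animals. The level of skr-8 (C52D10.9) was 4.42 in young adult, 196 in control, 29.1 in gld-1 RNAi, 32.4 in fed and 38.4 in fasted animals. Both were high in the control alone. skr-12 (C52D10.6) was at 4.42 in young adult, 252 in control, 69.8 in gld-1 RNAi, 92.2 in fed and 51.1 in fasted animals. skr-13 (C52D10.8) followed at 12.2 in young adult, 130.2 in control, 39.1 in gld-1 RNAi, 35.7 in fed and 46.4 in fasted animals. skr-10 (Y105C5B.13) was at 31.0 in young adult, 309 in control, 107 in gld-1 RNAi, 103 in fed and 87.9 in fasted animals. These 3 were again highest in the control and lowest in young adults, and the young adult value of skr-8, skr-9 and skr-12 rests on 4 reads each. The genes skr-13, skr-9, skr-8 and skr-12 follow each other on the chromosome with no other coding gene between them. The exons of skr-7, skr-8 and skr-9 sum to 585 bases each and those of skr-12 and skr-13 to 519 bases, and near-identical copies may share or lose reads in counting, so values of single genes in this set are uncertain.

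**Figure D1:**
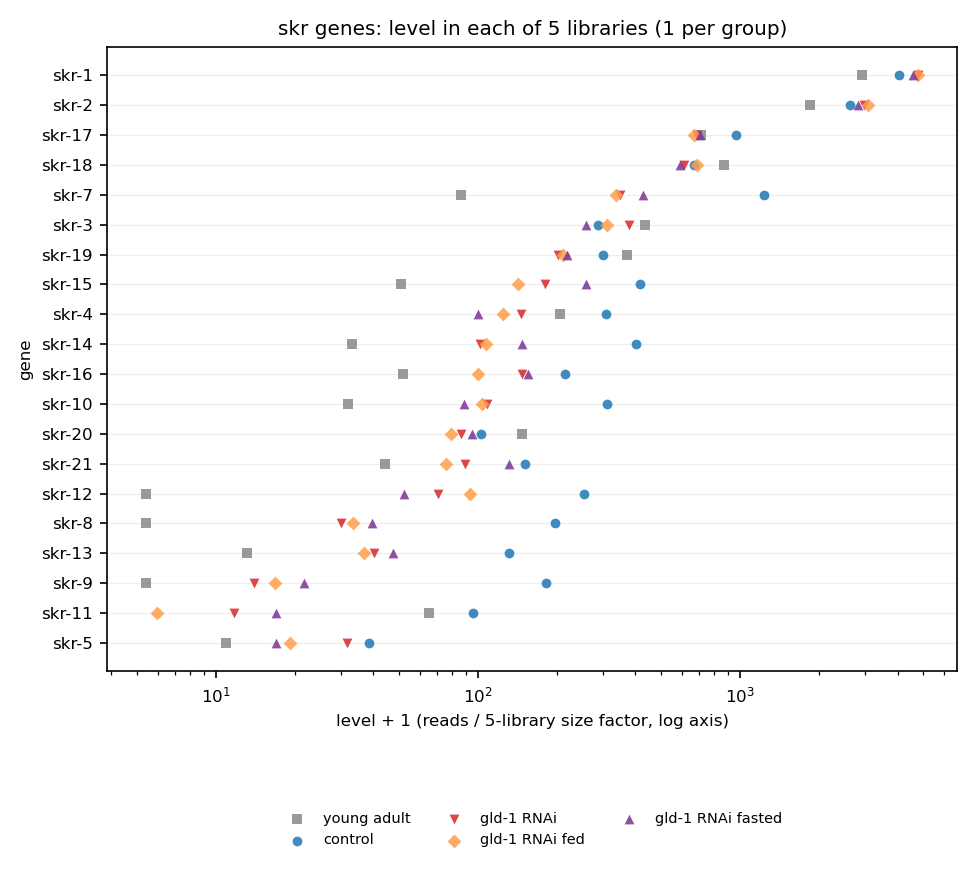
Level plus 1 on a log axis (reads over the 5-library size factor) of each of the 20 skr members, 1 symbol per library and 1 library per group. The blue control symbol is the rightmost for 14 of the 20 genes, and for skr-12, skr-8 and skr-9 it stands far to the right of the grey young adult symbol (for skr-9 182 against 4.42).

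From control to gld-1 RNAi, 10 of 20 skr members were at least 2-fold lower and 0 at least 2-fold higher. Over all 13210 genes with a mean of at least 10 reads in this table, 9.11% were at least 2-fold lower and 14.9% higher. Since this contrast chose the families, nothing is read from these counts. The lowest folds were -3.67 (interval -4.55 to -3.03) for skr-9, -3.0 (interval -4.01 to -2.29) for skr-11 and -2.66 (interval -3.23 to -2.19) for skr-8. The other 7 were skr-14 (-1.93), skr-12 (-1.79), skr-7 (-1.78), skr-13 (-1.66), skr-10 (-1.47), skr-15 (-1.15) and skr-4 (-1.03), all log2 folds. The median over the 20 members was -0.88 and over all genes -0.03. It was -0.79 to -0.74 under the 3 other scalings, which put the median of all genes at 0.06 to 0.11. Of the 20, 0 had an adjusted p below 0.1 in the authors' deposited table, against 0.223% of all genes with a value there.

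The pair of young adult to control has no deposited table of its own and was set on the 5-library scale. There 16 of 20 skr members had log2 folds above 0. skr-4 and skr-11, at least 2-fold lower from control to gld-1 RNAi, had log2 folds of 0.59 and 0.56 there. Of 20 members, 11 were at least 2-fold higher and 0 lower, against 15.2% and 32.3% of all 13993 genes. The log2 fold was 5.55 (interval 4.46 to 7.72) for skr-12, 5.18 (interval 4.09 to 7.36) for skr-8, 5.07 (interval 3.98 to 7.25) for skr-9 and 3.84 (interval 3.53 to 4.21) for skr-7. The median was 1.80 (1.72 when scaled to reads outside rRNA). This pair and the previous one share the control library, so their opposite signs are not independent. Young adult against gld-1 RNAi leaves the control out but shares a library with each of these pairs, so it is not independent of them. There 10 of 19 measured skr members were at least 2-fold higher and 1, skr-11 (-2.37), at least 2-fold lower, against 18.9% and 28.2% of 14450 genes. The median was 1.13, and 0.71 to 1.24 under the other scalings, which put the median of all genes at -0.42 to 0.13. Scaled to equal totals, 9 members were at least 2-fold higher and 3 lower, and of all genes 1531 higher and 5223 lower, against 2724 and 4079 on the authors' scale. The authors' deposited table gave 0 members of either family an adjusted p below 0.1, with 0.859% of all genes below it. The summed early embryo markers were lowest in young adults and highest in the control, as skr-7 to skr-10 and skr-12 to skr-14 were. In the gld-1 RNAi library 8 of 8 oocyte markers were at least 2-fold below the control. So were 5 of 5 early embryo markers that reached the minimum mean in this pair. Only 3 early embryo markers reached it from gld-1 RNAi to fed. Some may thus have passed through the control library, in which they were high, and nothing is read from the early embryo count. The part of embryos and oocytes in the skr values was not tested.

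The adaptors skr-3, skr-4 and skr-5 act with the cullin CUL-6 in the response of worms to intracellular pathogens. The level of skr-3 (F44G3.6) was 436 in young adult, 287 in control, 377 in gld-1 RNAi, 311 in fed and 259 in fasted animals. It was highest in young adults and, among day 3 animals, higher in the gld-1 RNAi than in the control library, with a log2 fold of 0.45 (interval 0.24 to 0.65). skr-4 (Y60A3A.18) stood at 205 in young adult, 308 in control, 145 in gld-1 RNAi, 124 in fed and 99.1 in fasted animals, with the control the highest. The level of skr-5 (F47H4.10) was 9.95 in young adult, 37.6 in control, 30.7 in gld-1 RNAi, 18.3 in fed and 16 in fasted animals, and its fold from control to gld-1 RNAi, -0.23 (interval -0.90 to 0.42), has an interval that spans 0. skr-5 overlaps another annotated gene. Of these adaptors, skr-3 was thus higher and skr-4 lower in the gld-1 RNAi than in the control library.

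Of the other adaptors, skr-11 and skr-15 stood at least 2-fold below the control in the gld-1 RNAi library. skr-15 (F54D10.1) was at 49.8 in young adult, 415 in control, 179 in gld-1 RNAi, 141 in fed and 257 in fasted animals. The pseudogene skr-11 (F13A7.9) was at 64.1 in young adult, 95.2 in control, 10.7 in gld-1 RNAi, 4.98 in fed and 16 in fasted animals, and was thus low in the 3 gld-1 RNAi libraries and not in young adults. skr-16 and skr-21 were highest in the control as well, at 215 and 151. skr-17 had levels of 669 to 969.7 and skr-18 of 591 to 870.4 over the 5 libraries. skr-18, skr-19 and skr-20 were highest in young adults. The log2 fold of skr-18 from control to gld-1 RNAi was -0.07 (interval -0.21 to 0.07) and that of skr-20 -0.21 (interval -0.60 to 0.18), both with intervals that span 0.

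The F-box genes stood lower than the adaptors per length. Per kb of exon, the mean level over the 5 libraries had a median of 23.9 over the 129 fbxa members, against 251 over the skr members, and reached 1774 for fbxa-215. Of the 5 members with most reads, the first was fbxa-215 (Y45F10C.3), at 2047 in young adult, 4424 in control, 1807 in gld-1 RNAi, 1591 in fed and 2060.3 in fasted animals. It was highest in the control, unlike the other 4. fbxa-210 (Y37H2A.5) was at 687 in young adult, 812 in control, 1064 in gld-1 RNAi, 1176 in fed and 1036 in fasted animals. fbxa-101 (F08A8.7) stood at 634 in young adult, 626 in control, 1068 in gld-1 RNAi, 1153 in fed and 1042 in fasted animals. The level of fbxa-114 (Y113G7B.7) was 312 in young adult, 301 in control, 762 in gld-1 RNAi, 769 in fed and 667 in fasted animals. That of fbxa-107 (Y37H2A.4) was 218 in young adult, 298 in control, 649.6 in gld-1 RNAi, 816 in fed and 638 in fasted animals. In each of these 4 genes the 3 gld-1 RNAi libraries lay above both libraries of animals without gld-1 RNAi. Over the family, 39 members were highest in young adult, 17 in control, 25 in gld-1 RNAi, 35 in fed and 13 in fasted animals. For the 20 skr members the numbers were 4, 14, 0, 2 and 0 in the same order.

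From control to gld-1 RNAi, 42 of 109 fbxa members with a mean of at least 10 reads in that table were at least 2-fold higher and 12 lower, with 14.9% and 9.11% of all genes as the background and again nothing read from it. The other 20 members were under the minimum there. The median log2 fold was 0.58, and 0.67 to 0.72 under the 3 other scalings. It was 0.26 over the 83 protein-coding and 0.97 over the 26 pseudogene members. A minimum mean admits low genes through the library in which they are high. Summed over all 222 listed genes, with no minimum, the log2 ratio was 0.27 (interval 0.24 to 0.30). Without fbxa-215, which held most reads, it was 0.70 (interval 0.66 to 0.74). The same sum over the 21 skr genes was -0.18 (interval -0.21 to -0.15), and without skr-1 it was -0.46 (interval -0.50 to -0.42).

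The furthest higher of the measured members with a mean of at least 50 reads was fbxa-94 (F28F8.8), at a level of 9.95 in young adult, 6.99 in control, 168 in gld-1 RNAi, 178 in fed and 126 in fasted animals. Both libraries without gld-1 RNAi were low and the 3 gld-1 RNAi libraries high. The fold over the control was 4.48 (interval 3.64 to 5.87) on the log2 scale in the gld-1 RNAi library. A minimum mean of 50 also admits genes through the library in which they are high. fbxa-94 had 8 control and 219 gld-1 RNAi reads. Of those named below, fbxa-90 had 16 and 88, fbxa-37 had 25 and 107, and fbxa-140 had 45 and 276. Their folds are given as values. Of all members, fbxa-94 alone had an adjusted p below 0.1 in the authors' deposited table, at 0.0923, a value made from 1 library a side. fbxa-94 overlaps another annotated gene, and no source used here states whether the libraries keep strand. Its neighbour fbxa-95 (F28F8.4) was at 118 in young adult, 233 in control, 793 in gld-1 RNAi, 774 in fed and 662 in fasted animals. fbxa-140 (C47B2.1) had levels of 88.5 in young adult, 39.3 in control, 212 in gld-1 RNAi, 269 in fed and 270.1 in fasted animals. fbxa-108 (F59A1.7) stood at 177 in young adult, 116 in control, 506 in gld-1 RNAi, 569.7 in fed and 516 in fasted animals. All 3 had higher values in each of the gld-1 RNAi libraries than in either library without it. fbxa-90 (2.26) and fbxa-37 (1.92) completed the 5 highest log2 folds at that mean, next to 2.46 for fbxa-140 and 2.17 for fbxa-108.

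**Figure D2:**
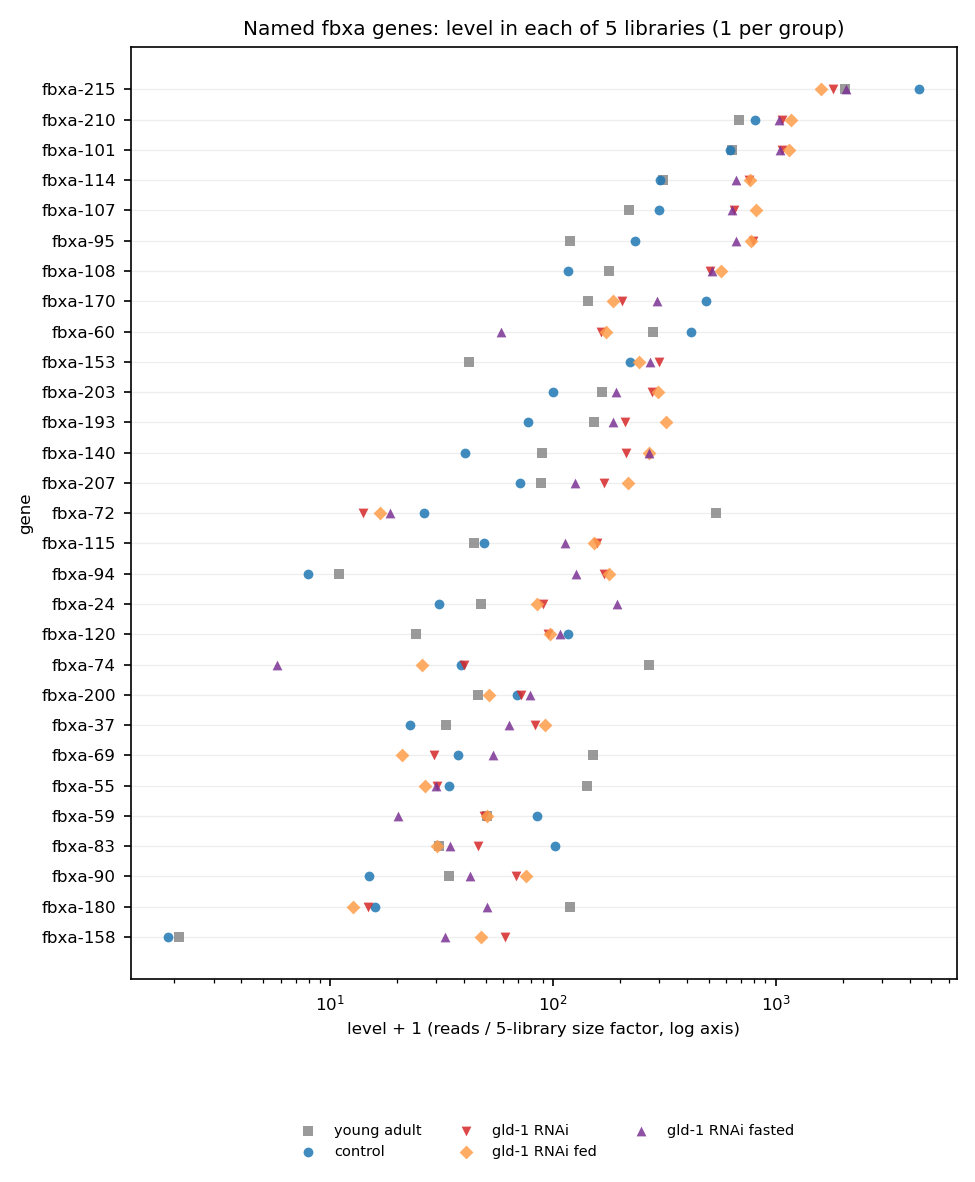
Level plus 1 on a log axis (reads over the 5-library size factor) of the named fbxa members, 1 symbol per library and 1 library per group. For fbxa-94, fbxa-95, fbxa-108 and fbxa-140 the symbols of the 3 gld-1 RNAi libraries lie right of the grey young adult and blue control ones, and for fbxa-72 the young adult symbol stands alone at the right (539.7).

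At the other end of the members with a mean of at least 50 reads, fbxa-60 (T12B5.10) was at 281 in young adult, 417 in control, 164 in gld-1 RNAi, 173 in fed and 57.5 in fasted animals, high in both libraries without gld-1 RNAi and lowest in the fasted one. fbxa-170 (C36C9.3) stood at 143 in young adult, 488 in control, 202 in gld-1 RNAi, 186 in fed and 292 in fasted animals. fbxa-83 (Y67A10A.4) was at 29.9 in young adult, 101 in control, 45.2 in gld-1 RNAi, 29.1 in fed and 33.6 in fasted animals. Like fbxa-215, all 3 were highest in the control. The log2 folds from control to gld-1 RNAi were -1.29 (interval -1.53 to -1.06) for fbxa-60, -1.24 (interval -1.31 to -1.17) for fbxa-215, -1.21 (interval -1.43 to -1.0) for fbxa-170 and -1.10 for fbxa-83. fbxa-59, which overlaps another annotated gene, was the next of these at -0.73. Among all measured members the lowest was fbxa-156, with 57 control and 16 gld-1 RNAi reads and a log2 fold of -1.90 (interval -2.87 to -1.15).

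A group of 10 fbxa members, and no skr member, had at most 3 reads in both the young adult and the control library. These were singled out after their values were seen. With so few reads there, a gene could reach the minimum mean only through a library of gld-1 RNAi animals, so their higher reads in those were fixed by the filter and are given as values. fbxa-158 (C08E3.10), the F-box partner of CUL-6 in the pathogen response, had 1 read in young adult, 1 in control, 78 in gld-1 RNAi, 56 in fed and 20 in fasted animals. Its reads from control to gld-1 RNAi gave a 95% counting interval of the log2 ratio of 3.63 to 11.47. fbxa-43 (T20H9.2) had 3, 1, 80, 75 and 16 reads in that order. fbxa-118, fbxa-100 and fbxa-171 had none in either of the first pair of libraries. In gld-1 RNAi, fed and fasted animals fbxa-118 had 19, 25 and 5 reads, fbxa-100 had 14, 10 and 8, and fbxa-171 had 19, 3 and 8. fbxa-75, the other F-box partner of CUL-6, was no member, with at most 4 reads in any library.

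Many fbxa genes are neighbours. In the RefSeq order of coding genes and pseudogenes, 140 of the 222 fbxa genes lie in 43 runs with at least 1 fbxa neighbour. Of the 24 runs with 2 or more members, 13 had every member higher and 4 every member lower from control to gld-1 RNAi, and 7 were mixed. These tallies count every member, also those under the minimum mean in that table, and 70 of the 109 measured fbxa members were above 0 in this contrast, which chose the families, so nothing is read from them. From fed to fasted, 1 of the 24 runs had every member higher, 13 every member lower, and 10 were mixed. In this pair 59 of the 92 measured fbxa members were below 0. The 37 members under the minimum mean there are counted too, and nothing is read from this tally either. Members of a run may share sequence and reads, so they are not independent. fog-2 (Y113G7B.5) lies between its relative ftr-1 and fbxa-114, and its level was 401 in young adult, 646 in control, 605 in gld-1 RNAi, 629 in fed and 668 in fasted animals. fog-2 had a log2 fold of -0.04 (interval -0.19 to 0.10) from control to gld-1 RNAi, against 0.88 (interval 0.70 to 1.05) for ftr-1 and 1.39 (interval 1.22 to 1.58) for fbxa-114.

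From young adult to gld-1 RNAi the fbxa members went both ways. Of 115 measured members, 36 stood at least 2-fold higher and 29 lower, against 18.9% and 28.2% of all genes. Scaled to equal totals, the counts were 20 higher and 34 lower. Of all genes, 1531 were then higher and 5223 lower, against 2724 and 4079 on the authors' scale. The median was 0.61, and 0.19 to 0.74 under the other scalings. The lowest fold of all measured members was that of fbxa-202, with 50 reads in the young adult and 0 in the gld-1 RNAi library, which is at least 22.2-fold lower against a floor of 3 reads in the latter. The members named next are the ends of the order among those with a mean of at least 50 reads. This minimum again admits members through the library in which they are high. The lowest of these was fbxa-72 (F31F4.15), at 539.7 in young adult, 25.3 in control, 13 in gld-1 RNAi, 15.8 in fed and 17.6 in fasted animals, with a log2 fold of -5.17 (interval -6.05 to -4.56). fbxa-74 (Y22D7AR.9) was at 269 in young adult, 37.6 in control, 39.1 in gld-1 RNAi, 24.9 in fed and 4.80 in fasted animals. Both were high in young adults alone, and fbxa-74 was lowest in the fasted library. fbxa-180 (-2.91), fbxa-69 (-2.26) and fbxa-55 (-2.13) also had their highest level in young adults. The highest folds at that mean belonged to fbxa-94 (4.06), fbxa-153 (2.95), fbxa-95 (2.85), fbxa-120 (2.09) and fbxa-115 (1.95). Below that mean, fbxa-158 had the highest fold of all measured members, from 1 to 78 reads. The summed levels of sperm, body wall muscle and intestine markers were also highest in young adults. Of 7 measured sperm markers, 4 were at least 2-fold lower and 1 higher from young adult to gld-1 RNAi. Of 8 intestine markers, 4 were at least 2-fold lower and 1 higher from young adult to control. The 8 muscle markers summed to 176566 in young adult, 21627 in control, 25206 in gld-1 RNAi, 24842 in fed and 16733 in fasted animals, and 8 of 8 were at least 2-fold lower from young adult to gld-1 RNAi. The 8 intestine markers summed to 58084 in young adult, 15684 in control, 7439 in gld-1 RNAi, 9853 in fed and 8011 in fasted animals, and 6 of 8 were at least 2-fold lower. The part of these tissues in the members' young adult values was not tested. From young adult to control, 10 of 105 fbxa members were at least 2-fold higher and 32 lower, with a median of -0.32 and backgrounds of 15.2% and 32.3%. With a mean of at least 50 reads, the highest there were fbxa-153 (2.4), fbxa-120 (2.27), fbxa-170 (1.77), fbxa-83 (1.73) and fbxa-215 (1.11). The lowest at that mean were fbxa-72 (-4.36), fbxa-180 (-2.91), fbxa-74 (-2.81), fbxa-55 (-2.06) and fbxa-69 (-2.01).

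Between the fed and the fasted library the median of either family lay near 0. gld-1 itself had a log2 fold of -0.92 in this pair, and its part in the members' values was not tested. From fed to fasted, 7 of 92 fbxa members were at least 2-fold higher and 11 lower, against 2.14% and 5.81% of 12447 genes. Of the 19 measured skr members 0 were 2-fold higher or lower, with medians of -0.18 for fbxa and 0.10 for skr. Both medians kept their sign under the 3 other scalings. The authors' deposited table gave 0 members an adjusted p below 0.1, with 0.632% of all genes below it. fbxa-60 had the lowest log2 fold of the members with a mean of at least 50 reads, -1.54 (interval -2.11 to -1.04), and fbxa-24 (F54D10.2) the highest, 1.22 (interval 0.84 to 1.63). The level of fbxa-24 was 46.5 in young adult, 29.7 in control, 89.7 in gld-1 RNAi, 83.9 in fed and 193 in fasted animals, so that the fasted library exceeded all others. fbxa-170 (0.68), fbxa-200 (0.64) and fbxa-215 (0.40) were higher in the fasted library by less than 2-fold, and the log2 fold of fbxa-153 was 0.20 (interval -0.08 to 0.48). fbxa-90 (-0.80) and the pseudogenes fbxa-207 (-0.77), fbxa-193 (-0.76) and fbxa-203 (-0.61) were lower by less than 2-fold, and fbxa-207 overlaps another annotated gene. From fed to fasted, 4 of 8 intestine markers were at least 2-fold lower and 1 higher, 8 of 8 muscle markers had log2 folds below 0, and 4 of 8 oocyte markers were at least 2-fold higher. Their part in the members' values was not tested. This pair shares no library with control to gld-1 RNAi. Measured in both were 41 fbxa members that the gld-1 RNAi library held at 2-fold or more above the control. Of these, 3 were at least 2-fold lower and 1 higher in the fasted library. Of 6 fbxa members 2-fold or more below the control, 0 were at least 2-fold higher and 2 lower in the fasted library. Of the 9 skr members 2-fold or more below the control there, 0 were 2-fold apart between fed and fasted. This cross was not made over all genes, of which 5.81% were lower and 2.14% higher from fed to fasted. Nothing is read from its counts.

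Between the gld-1 RNAi and the fed library, 2 of 104 fbxa members were at least 2-fold higher and 5 lower, against 1.24% and 1.18% of all genes, and 0 of 19 skr members either way. The fbxa median of -0.02 was 0.01 under upper quartile scaling. Scaled to equal totals, 1 fbxa member was higher and 5 lower, and of all genes 139 higher and 201 lower, against 166 and 159 on the authors' scale. Among members with a mean of at least 50 reads the folds reached from -0.64 (interval -1.17 to -0.14) for fbxa-3 to 0.59 (interval 0.37 to 0.83) for fbxa-193. The other low ones were fbxa-65 (-0.55), fbxa-182 (-0.52), fbxa-200 (-0.51) and fbxa-98 (-0.49). The other high ones were fbxa-122 (0.51), fbxa-212 (0.45), fbxa-198 (0.41) and fbxa-121 (0.40). Between the gld-1 RNAi and the fasted library, 3 of 95 fbxa members were at least 2-fold higher and 11 lower, against 1.15% and 6.09%. None of 20 skr members was 2-fold apart. fbxa-60 (-1.52) and fbxa-24 (1.08) were again at the ends among members with a mean of at least 50 reads. Next to fbxa-60 came fbxa-182 (-0.90), fbxa-216 (-0.77), fbxa-98 (-0.66) and fbxa-191 (-0.59). Next to fbxa-24 came fbxa-170 (0.51), fbxa-64 (0.43), fbxa-140 (0.33) and fbxa-123 (0.23). These pairs share the gld-1 RNAi or the fasted library with others above.

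**Figure D3:**
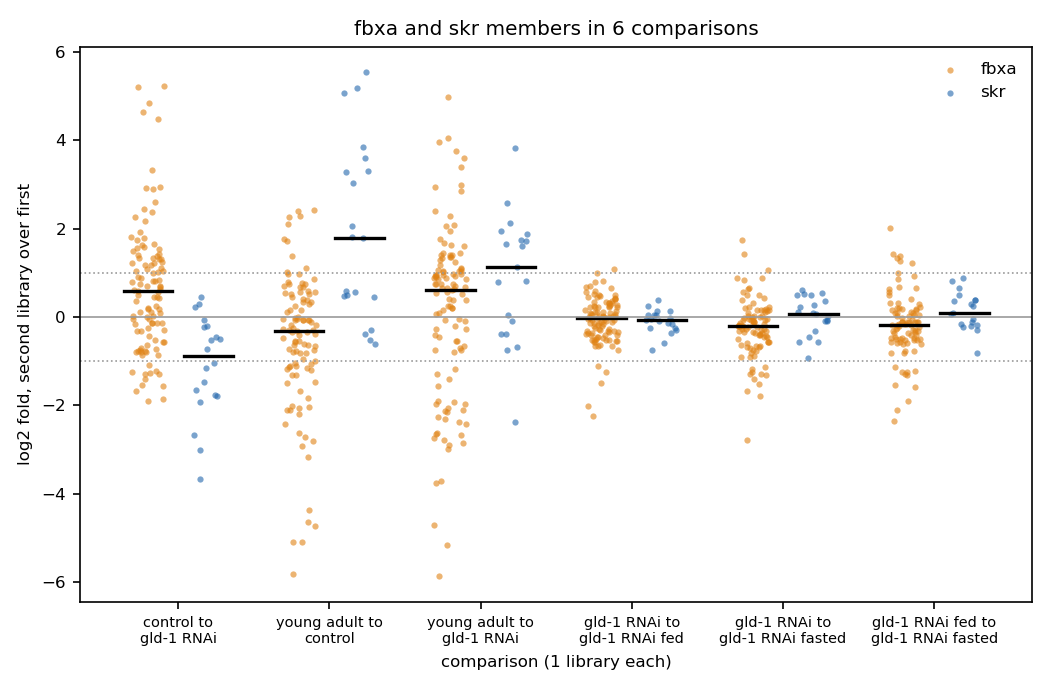
Log2 fold of the second over the first library for every fbxa (orange) and skr (blue) member with a mean of at least 10 reads in that pair, in 6 comparisons of 1 library each. Black bars are medians and dotted lines mark 2-fold; the medians from control to gld-1 RNAi are 0.58 for fbxa and -0.88 for skr, and the comparisons among gld-1 RNAi animals lie near 0.

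Of 19 genes of the SCF core and of cullin modification by the ubiquitin-like NED-8, 1 was at least 2-fold lower and 0 higher from control to gld-1 RNAi. Over all genes 9.11% were lower and 14.9% higher in this pair, the background for each list of this paragraph. The cullin cul-1, the scaffold, was at 2404 in young adult, 4032 in control, 3668 in gld-1 RNAi, 3727 in fed and 3895 in fasted animals. rbx-1, its RING partner, was at 1586 in young adult, 3304 in control, 2526 in gld-1 RNAi, 2309 in fed and 2664 in fasted animals. Both were lowest in young adults. The exception was ubc-12, the enzyme that conjugates NED-8, at 1056 in young adult, 1668 in control, 750.1 in gld-1 RNAi, 695 in fed and 798 in fasted animals, with a log2 fold of -1.10 (interval -1.21 to -0.99). Of the other 5 cullins, cul-6 was higher by a log2 fold of 2.29 (interval 1.85 to 2.81) and lay at 79.6 in young adult, 39.3 in control, 189 in gld-1 RNAi, 136 in fed and 95.9 in fasted animals, above both libraries without gld-1 RNAi in each library with it. Of 11 F-box genes outside the fbxa family, 0 were 2-fold higher or lower. They ranged from -0.91 for sel-10, whose product limits Notch signalling, to 0.88 for ftr-1. From fed to fasted, none of these 35 genes was 2-fold apart, against 5.81% of all genes lower and 2.14% higher. With so few genes in each list, nothing is read from these counts.

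Other F-box families had values of their own. Of 74 measured fbxb genes, 46 were at least 2-fold lower and 4 higher from control to gld-1 RNAi (median -1.35), against 9.11% and 14.9% of all genes, which is the background for each set of this contrast below. From young adult to control, 38 of 41 were at least 2-fold higher (median 3.65), against 15.2% of all genes. In pairs without the control library, 17 fbxb genes were measured from young adult to gld-1 RNAi and 35 from gld-1 RNAi to fed. Many thus reached the minimum mean through the control library, in which they were high. The fbxb counts were therefore partly set by the filter, and nothing is read from them. The fbxc genes divided 8 higher to 9 lower of 32, and the bath genes, adaptors of CUL-3, 12 to 4 of 37. Of the pals genes, known from the pathogen response, 11 of 22 were at least 2-fold higher and 3 lower. A list of 13 pathogen response genes had 9 measured members, of which 6 were at least 2-fold higher. This list includes cul-6, already given above, so its count is not separate from that value. From young adult to control, a pair without gld-1 RNAi animals, 16 pals genes and 7 genes of this list were measured. Some may thus have reached the minimum mean through the gld-1 RNAi library, and nothing is read from the pals and pathogen response counts. eol-1, named after its value was seen, was at 4.42 in young adult, 18.3 in control, 226 in gld-1 RNAi, 186 in fed and 133 in fasted animals, and the reporter gene pals-5 at 1.11 in young adult, 0.874 in control, 4.6 in gld-1 RNAi, 4.15 in fed and 3.20 in fasted animals. From fed to fasted, 4 of 21 pals genes were at least 2-fold lower and 0 higher, against 5.81% and 2.14% of all genes. In that pair cul-6 had a log2 fold of -0.48 (interval -0.93 to -0.05). No difference between families was tested.

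**Figure D4:**
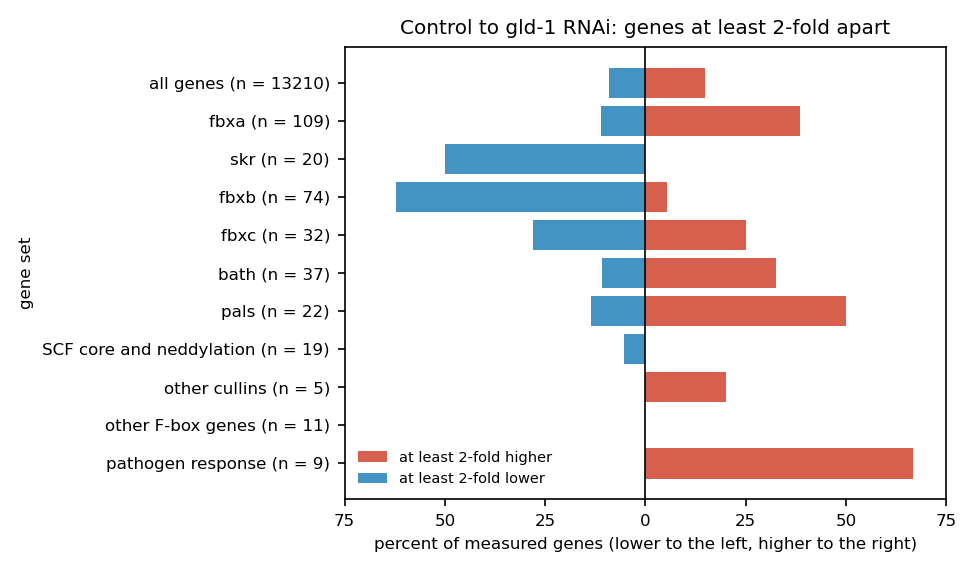
Percent of measured genes at least 2-fold lower (blue, to the left) and higher (red, to the right) from control to gld-1 RNAi, 1 library each, by gene set, with the number of measured genes. The fbxa bar is longer to the right (38.5%) and the skr bar lies wholly to the left (10 of 20), as does most of the fbxb bar (62.2%). Many fbxb genes reached the minimum mean through the control library, and some pals and pathogen response genes may have reached it through the gld-1 RNAi library.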

How the data were processed

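TopHat, HTSeq and DESeq are the tools in the submitters' processing notes. Their versions and the genome build are not stated in any source used. Per the file headers, each of the 5 tables deposited by the authors compares a pair of libraries. The normalized signal deposited by the authors is gene counts over a size factor of that pair. The authors also deposited a log2 fold and a p-value adjusted for multiple tests. Columns were assigned from the order of each table's name. All values above 0 came out as whole reads within 0.1 read, and the gld-1 RNAi library, present in 4 of the 5 tables, gave equal reads in each (0 genes differed). With 1 library per group no count model could be fitted to these reads.

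Of 45461 identifiers, 44936 were matched to names through RefSeq and Ensembl release 115 (WBcel235), used for names, biotypes, exon lengths and neighbours. Folds used a pseudocount of 1, and counts a mean of at least 10 reads. Intervals are exact (Clopper-Pearson, 95%, scipy 1.17.1): at 10 reads in each library they reach 1.42 on either side of the log2 ratio, at 100 reads 0.41. Members, lists and rules were chosen with earlier results of these data known. Named were every skr member, the 5 highest and 5 lowest fbxa folds per comparison with a mean of at least 50, the 5 fbxa members of highest mean level, fbxa-75, fbxa-94 and fbxa-158, and listed partner genes at least 2-fold apart; others are said to be named after their values were seen, or belong to a member's neighbours. Reading and intervals were tested on simulated data.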

Additional observations from a re-analysis of the deposited data

How the results depend on the processing

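From control to gld-1 RNAi, the fbxa members at least 2-fold higher and lower, 42 and 12, were 26 and 4 at a minimum mean of 50, 23 and 3 among members with a mean level of at least 50 over the 5 libraries (chosen after seeing the data), and 21 and 3 at 3-fold. The lower count was 7 with a pseudocount of 10 and 23 at 1.5-fold. The share of all genes was not computed at these other minimums, thresholds and pseudocount, so nothing is read from these counts. The authors' adjusted p below 0.1 left 1 fbxa member higher and 0 lower, and 0 skr members lower. Counting intervals wholly on one side of 0 put 3 skr members on the higher side, where none was 2-fold higher. The causes were not tested, beyond the fewer members that a stricter minimum or threshold admits. The 12 medians kept their sign under every alternative run, except that of fbxa from gld-1 RNAi to fed, which was 0.01 under upper quartile scaling, 0.03 at a minimum mean of 50 and 0.04 among members with a mean level of at least 50. The sum over all fbxa genes from young adult to control, a log2 ratio of 0.21, was -0.11 without fbxa-215. The alternative without near-identical proteins was not run, since no protein sequences were used here. Of all recomputed counts, 167 stayed within 1.5 times the reported one and 93, many of them small counts, did not. Of the sums without the gene with most reads, 3 stayed close, 8 moved and 1 changed sign. No paired analysis was possible because each group is 1 library. From fed to fasted, the counting interval of 53 of 92 measured fbxa members spans 0. It does so for 76 of 104 from gld-1 RNAi to fed and 65 of 95 from gld-1 RNAi to fasted. The numbers were 38 of 109 from control to gld-1 RNAi, 23 of 115 from young adult to gld-1 RNAi and 44 of 105 from young adult to control. Few reads and a small fold can each give such an interval and were not told apart. The share over all genes was not computed.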
